A study of Mus musculus with 6 samples.

Results

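The genes described here are 9 transcripts grouped as estrogen-responsive in the mouse uterus: Ltf, Lcn2, Lpo, Greb1, Padi1, Padi2, Padi4, Kap and Clca1. They were taken by name, with no cut on a measured value but with earlier results of these data known. They came from the 24077 genes of a single-cell count table and the 30828 genes of 4 spatial count tables. All 9 were present in both. All samples came from female CD-1 mice that were injected subcutaneously on neonatal days 1 to 5 with corn oil (CO) or with diethylstilbestrol (DES), a synthetic estrogen, at 1 mg/kg/day, and whose uteri were taken at 12 months. The single-cell data hold 1 CO library of 2 pooled mice and 1 DES library of 4 pooled mice, and the spatial data hold 2 sections per group, called CO A, CO B, DES A and DES B, each from a different mouse. By the study's methods, adult DES mice are in persistent estrus and the CO mice were taken in estrus. The DES mice for the sections were picked for the presence of adenocarcinoma, and CO section B was described as folded and DES section B as limited for telling spot clusters apart.

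Estrogen acts on the uterus through the nuclear receptor ERα, encoded by Esr1, which binds DNA and recruits co-activators at its target genes. In the uterine epithelium this switches on a secretory program along with growth. Ltf encodes lactoferrin, an iron-binding antimicrobial protein and a classic estrogen-induced gene of the mouse uterus. Lcn2 encodes lipocalin 2, which binds iron-carrying bacterial siderophores, and Lpo encodes lactoperoxidase, an antimicrobial enzyme of secretions. Greb1 encodes a chromatin-bound co-factor of ERα that is itself induced by the receptor. Padi1, Padi2 and Padi4 encode peptidylarginine deiminases, which convert arginine residues of proteins to citrulline. Kap encodes kidney androgen-regulated protein, a secreted protein under steroid hormone control. Clca1 encodes a secreted metalloprotease of mucus-producing epithelia that modulates calcium-activated chloride channels. Several of these proteins are also known in white blood cells (Ltf and Lcn2 in neutrophil granules, Padi4 in neutrophils, Padi2 in macrophages), so markers of those cells were measured alongside.

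The genes lie on 7 chromosomes of GRCm38 (mm10). Lcn2 is at chr2:32384633-32388252, Clca1 at chr3:145003817-145032776, Kap at chr6:133849851-133853762, Ltf at chr9:111019271-111042767, Lpo at chr11:87806428-87828289 and Greb1 at chr12:16670615-16800886. The 3 Padi genes are neighbours on chromosome 4, with Padi4 at chr4:140745865-140774236, Padi1 at chr4:140812983-140845778 and Padi2 at chr4:140906344-140952586. Padi3 stands between Padi4 and Padi1, and the 4 genes span 206.7 kb. Genes on the opposite strand overlap Padi1 (Gm13032), Padi2 (Gm13031) and Greb1 (Gm48140), and genes on the same strand overlap Greb1 (Gm44305) and Padi2 (Gm26226), so the counts of these 3 genes may hold or lack reads of a neighbour.

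The 5 promoters printed below, from 250 bases before to 50 bases after the RefSeq start (GRCm38.p6), are those of the genes on which the comparisons turned. Capitals mark GGTCA or its reverse complement TGACC, the half-site of the element that ERα binds, searched on both strands.
Ltf promoter, chr9:111019042-111019341, plus strand: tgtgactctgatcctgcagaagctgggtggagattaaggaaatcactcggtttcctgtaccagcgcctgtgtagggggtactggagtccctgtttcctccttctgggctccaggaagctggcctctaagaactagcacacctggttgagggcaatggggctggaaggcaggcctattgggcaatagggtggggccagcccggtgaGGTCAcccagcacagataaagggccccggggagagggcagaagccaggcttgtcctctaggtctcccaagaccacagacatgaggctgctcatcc
Greb1 promoter, chr12:16800837-16801136, minus strand: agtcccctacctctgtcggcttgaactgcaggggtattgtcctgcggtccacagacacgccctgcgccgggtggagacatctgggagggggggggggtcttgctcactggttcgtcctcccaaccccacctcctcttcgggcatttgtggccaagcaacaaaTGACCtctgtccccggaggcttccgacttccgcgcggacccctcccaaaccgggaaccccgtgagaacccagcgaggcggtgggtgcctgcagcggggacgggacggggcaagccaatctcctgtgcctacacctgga
Padi4 promoter, chr4:140774154-140774453, minus strand: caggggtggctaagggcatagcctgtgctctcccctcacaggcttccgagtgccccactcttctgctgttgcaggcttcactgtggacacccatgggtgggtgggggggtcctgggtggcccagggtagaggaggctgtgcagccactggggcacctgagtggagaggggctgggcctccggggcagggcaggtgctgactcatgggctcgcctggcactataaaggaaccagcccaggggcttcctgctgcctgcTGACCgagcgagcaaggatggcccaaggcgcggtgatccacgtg
Padi2 promoter, chr4:140906110-140906409, plus strand: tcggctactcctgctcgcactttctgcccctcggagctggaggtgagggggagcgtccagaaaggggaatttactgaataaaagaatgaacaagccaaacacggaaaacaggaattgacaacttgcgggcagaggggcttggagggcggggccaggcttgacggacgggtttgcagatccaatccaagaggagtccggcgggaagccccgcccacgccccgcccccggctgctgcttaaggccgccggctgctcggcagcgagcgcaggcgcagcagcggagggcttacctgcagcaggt
Kap promoter, chr6:133853618-133853917, minus strand: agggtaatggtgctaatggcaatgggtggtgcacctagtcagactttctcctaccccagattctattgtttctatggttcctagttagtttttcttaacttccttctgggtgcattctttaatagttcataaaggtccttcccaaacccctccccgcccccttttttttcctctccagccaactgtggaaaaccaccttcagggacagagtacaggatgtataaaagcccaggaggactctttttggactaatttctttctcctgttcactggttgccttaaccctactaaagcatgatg
The half-site begins 45 bases before the start in Ltf, 88 bases before it in Greb1 and 6 bases after it in Padi4, and the Padi2 and Kap windows hold none. The table holds 9 promoters for 8 of the genes, since Greb1 has a second start (chr12:16757190-16757489). Of these 9 promoters 5 held at least 1 half-site (1 in Ltf, in the first Greb1 start and in Padi4, and 2 in the second Greb1 start and in Lpo), against 40.5% of all 32851 promoters of this length. A match of 5 letters is a description of the window, and its absence says nothing about more distant sites.

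Counts are of unique molecular identifiers (UMIs, 1 per captured transcript molecule), and levels are given as CPM, the UMIs of a gene per 1000000 UMIs of the summed cells or spots. The single-cell table held 32387 CO and 16312 DES cells, of which the authors typed 2583 and 5255 as epithelial, with medians of 23458 and 21900 UMIs per cell. The libraries shared 180 cell barcodes. Epithelial markers took 0.600% of UMIs in the CO and 0.411% in the DES epithelial cells. The sections held 1357 to 1834 spots and 9117099 to 12506177 UMIs. Each condition has 1 single-cell library, so differences between these libraries are given without a test, and the 95% intervals (exact Poisson, or Clopper-Pearson for shares) cover counting error only.

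The genes had their highest level in epithelial cells among the larger typed classes, except Greb1. In the CO library the mesothelial cells, the largest typed class, held 5.62% to 9.05% of the epithelial level of 7 of the genes (all but Greb1 and Lpo, the last on few UMIs), and stromal cells held 8.04% to 14.6%. Endothelial cells held 8.98% to 13.9%. The range was 15.7% to 22.7% in the class labelled lymphocytes, 12.6% to 22.3% in myocytes, 3.72% to 21.1% in pericytes and 37.0% to 46.2% in cells without a type. By its markers the class labelled lymphocytes was mixed. In CO it held 0.155% lymphocyte-marker, 0.352% macrophage-marker and 0.271% neutrophil-marker UMIs, and in DES 0.138%, 0.894% and 0.805%. Its lymphocyte-marker share was the highest of the typed classes, the next being the myeloid class at 0.0383% in CO and 0.0323% in DES. The part of free RNA in the shares of the epithelial level was not tested. Greb1 was different. Its level in CO mesothelial cells was 80.6 CPM against 60.1 CPM in CO epithelial cells, which is 134% of the epithelial level, and stromal cells held 75.1%. In CO endothelial cells Greb1 was at 6.85 CPM (18 UMIs), 11.4% of the epithelial level. The Greb1 share was also above that of the other 7 genes in CO myocytes (86.4%), Ctla2a cells (78.1%), pericytes (70.8%) and myeloid cells (64.8%), and it lay within their range in endothelial cells and in the class labelled lymphocytes (21.5%). The mesothelial class held 2.11% stromal-marker UMIs and 0.234% mesothelial-marker UMIs, against 1.29% and 0.0156% in the stromal class, so it is named here by the authors' label and not by its markers alone. In the DES library mesothelial cells held 2.83% to 6.27% of the epithelial level of the 7 genes, and Greb1 stood at 63.1%. Of the white blood cell classes, Padi2 reached 74.0% (57.6% to 93.5%) of the DES epithelial level in the DES class labelled lymphocytes, on 70 UMIs.

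Among CO epithelial cells the genes were lower in glandular than in luminal clusters. The study named 4 of its 15 CO clusters glandular (3, 8, 13 and 14) and proposed cluster 12 as stem cells, which leaves 10 luminal clusters. Clca1 was 1632 CPM in the luminal and 135 CPM in the glandular clusters, a ratio of 12.1. The ratio was 10.4 for Lcn2, 10.1 for Kap, 7.76 for Padi2, 7.62 for Padi1, 6.30 for Ltf, 3.93 for Padi4 and 2.96 for Greb1. The glandular levels themselves were 135 CPM for Clca1, 412 CPM for Ltf and 791 CPM for Lcn2, and the mesothelial level of Ltf was 162 CPM. Lpo had 15 UMIs in the glandular and 153 in the luminal clusters, a ratio of 1.30 whose interval (0.764 to 2.38) includes no difference. Cluster 12 kept Lcn2 at 4726 CPM and Ltf at 1362 CPM, while Clca1 (108 CPM) and Kap (32.8 CPM) were below their levels in the glandular clusters (135 and 51.6 CPM). Greb1 was at 92.8 CPM in cluster 12 and at 95.4 CPM in cluster 13, the mature gland of the study, and these 2 highest Greb1 levels did not differ beyond their counting intervals. These contrasts are descriptions, since the clusters came from the same counts.

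**Figure D1:**
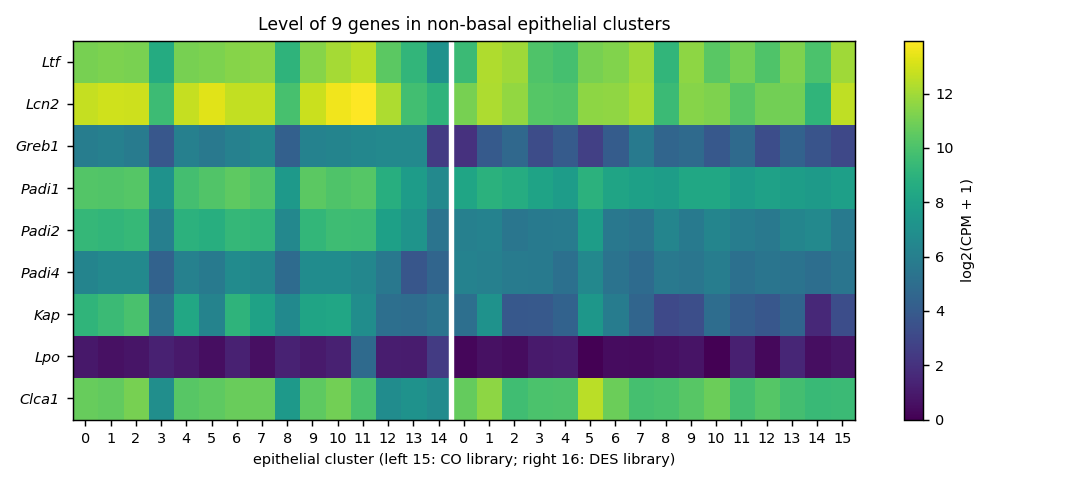
Level of the 9 genes (rows) in the 15 CO and 16 DES non-basal epithelial clusters (columns), as log2(CPM + 1) of UMIs summed over the cells of each cluster. In the CO library, clusters 3, 8, 13 and 14 are darker for most genes, Lpo stands out in cluster 11 (27.1 CPM), and in the DES library Clca1 is brightest in cluster 5 (5921 CPM).

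The antimicrobial genes peaked together in a small luminal cluster. CO cluster 11 (97 cells, 3.76% of the clustered CO cells) had the highest Ltf (5807 CPM against 4354 CPM in the next cluster), Lcn2 (15816 against 12888 CPM) and Lpo (27.1 against 4.41 CPM). It held 102 of the 170 epithelial Lpo UMIs (60.0%), spread over 40.2% of its cells. The other genes were split. Padi2 (748 CPM) was second to CO cluster 10 (778 CPM), with overlapping counting intervals. Padi1 (1247 CPM), Padi4 (87.1 CPM) and Greb1 (85.5 CPM) were above the median of the 15 clusters (1147, 78.0 and 67.1 CPM). Its Kap (116 CPM) and Clca1 (995 CPM) were below that median (258 and 1437 CPM). The cluster also held Foxa2, a transcription factor of uterine glands, at 21.8 CPM (82 UMIs), second to the 82.0 CPM of the mature glandular cluster 13.

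The same combination appeared in place in CO section A and not in CO section B. Its spot cluster 5 (140 spots), which the study called gland, had the highest Ltf (9429 CPM), Lcn2 (18426 CPM) and Lpo (198 CPM) of the 10 spot clusters of that section. It held 220 of the 294 Lpo UMIs of the section (74.8%). Padi2 (1148 CPM) and Padi4 (56.8 CPM) were also highest in it, with counting intervals that overlapped those of spot cluster 1 (1073 and 48.7 CPM). Padi1 (1820 CPM) was second to spot cluster 1 (1989 CPM). Kap was at 40.5 CPM there against 353 CPM in spot cluster 1, the cluster with the most epithelial-marker UMIs, and Clca1 was at 1435 against 6727 CPM. Foxa2 was at 23.4 CPM in spot cluster 5 and at 2.63 CPM in the other spots, while the gland secretory genes Prss29 and Spink1 had 1 and 0 UMIs in it. The neutrophil marker S100a9 was also higher in it, at 72.1 against 5.79 CPM, and its part in the Ltf and Lcn2 levels was not tested. The other CO mouse did not show the combination. In CO section B, which had 1 Lpo UMI in all, spot cluster 2 held the highest Lcn2 (1831 CPM), Kap (5480 CPM) and Clca1 (8758 CPM) of its 10 spot clusters, and its Ltf (1216 CPM) was level with that of spot cluster 9 (1215 CPM).

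**Figure D2:**
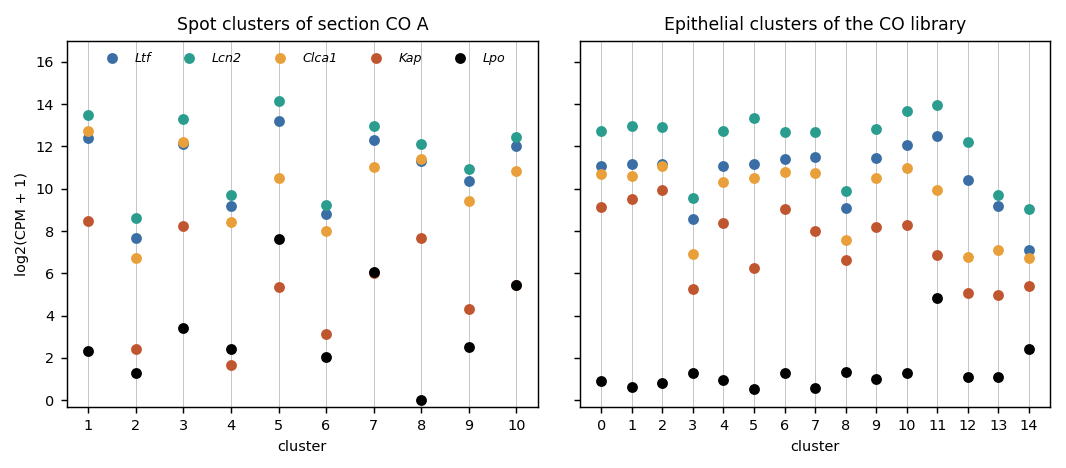
Level of Ltf, Lcn2, Clca1, Kap and Lpo, as log2(CPM + 1), in the 10 spot clusters of CO section A (left) and the 15 epithelial clusters of the CO library (right). Lpo, Ltf and Lcn2 are highest in spot cluster 5 and in cell cluster 11, where Kap and Clca1 are not. The Padi genes and Greb1 are not drawn.

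In single epithelial cells, 6 of the 9 genes were at least 2-fold lower in the DES than in the CO library and none was 2-fold higher. Of the 8445 genes that reached 10 CPM in 1 or both libraries, 14.3% were 2-fold apart, 596 of them higher and 609 lower, and of the 8 genes described here that reached it (all but Lpo) 5 were lower. Kap was lowest in relation to CO, at 43.2 CPM in DES and 457 CPM in CO epithelial cells, a DES to CO ratio of 0.0946 (0.0923 to 0.0970). Such intervals leave out the spread between mice, and the 2 CO sections described below differed 13.1-fold in Kap and 9.18-fold in Lcn2. Padi2 had a ratio of 0.119 (63.5 and 533 CPM), Greb1 of 0.30 (18.0 and 60.1 CPM), Padi1 of 0.306 (317 and 1036 CPM) and Lcn2 of 0.349 (2542 and 7291 CPM). Lpo had a ratio of 0.266 (0.206 to 0.342) on 101 and 170 UMIs. The other 3 genes were within 2-fold of the CO level. Ltf was at 2216 CPM in DES and 2327 CPM in CO cells (ratio 0.952), Clca1 at 1601 and 1433 CPM (ratio 1.12), and Padi4 at 53.3 and 76.2 CPM (ratio 0.700). The makeup of the epithelial class moved with the library. Basal markers took 0.000122% of its UMIs in CO and 0.0420% in DES, and gland markers 0.125% and 0.0149%. In the authors' non-basal clusters alone, the ratio was 1.01 for Ltf, 0.364 for Lcn2 and 0.277 for Greb1. The count of genes at least 2-fold lower was again 6 there. The part of gland cells in these ratios was not tested.

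**Figure D3:**
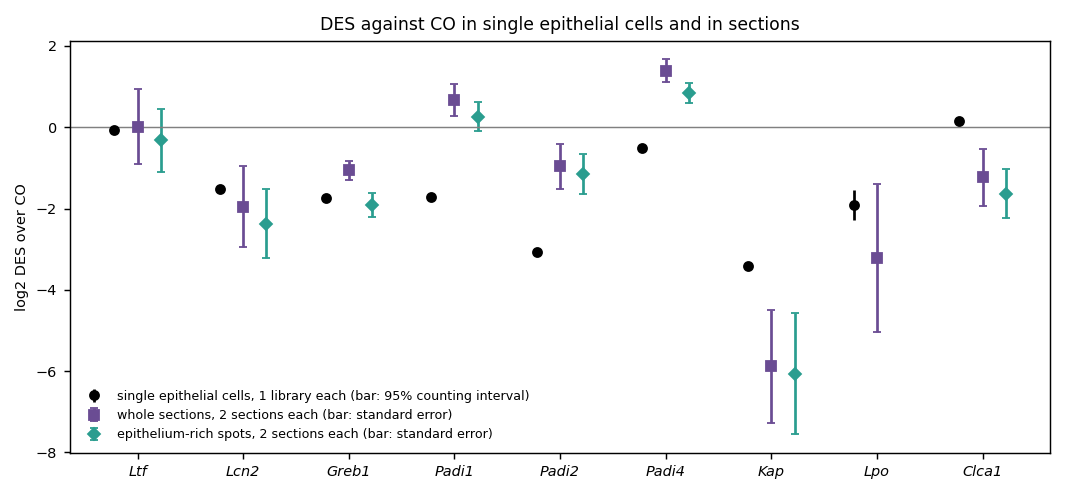
DES over CO of each gene on a log2 scale in single epithelial cells (1 library each, circles with 95% counting intervals), in whole sections (squares) and in epithelium-rich spots (diamonds), with standard errors of the fits over 2 sections each. Kap is lowest in all 3, Greb1 is below 0 in all 3, and Padi1 and Padi4 are below 0 in the cells but above 0 in the sections. Lpo was not fitted in epithelium-rich spots.

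The shares of cells with a UMI were compared after each cell was thinned to 3000 UMIs. Of CO epithelial cells, 68.7% had a Padi2 UMI, against 16.1% of DES epithelial cells (unthinned 93.8% and 60.3%). For Kap the shares were 33.8% and 6.25% (unthinned 71.3% and 25.3%), for Padi1 83.1% and 59.5% (unthinned 97.2% and 97.1%) and for Greb1 15.7% and 5.27% (unthinned 65.9% and 30.7%). Clca1 was seen in 77.8% of CO and 77.2% of DES cells (unthinned 93.6% and 92.7%). Lcn2 was seen in 96.2% of CO and 92.9% of DES cells (unthinned 99.9% and 99.3%), shares close to their upper limit, while its median per thinned cell was 19 and 5 UMIs. Ltf, with a level ratio of 0.952, was seen in 89.6% and 80.6% (unthinned 98.3% and 96.2%). Thinning left out 21 CO and 54 DES epithelial cells. For comparison, the mesothelial cells had medians of 10436 UMIs in the CO and 12329 UMIs in the DES library. After thinning, their share was 14.1% and 1.19% for Padi2, 14.7% and 0.344% for Kap, 77.9% and 24.7% for Lcn2 and 27.8% and 6.21% for Padi1, in CO and DES in turn. For Greb1 the mesothelial share in CO (19.2%) was above the epithelial one. Whether the mesothelial shares measure background was not tested for any of the 9 genes. The median thinned cell had UMIs of 5 of the 9 genes in the CO and of 4 in the DES epithelium.

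**Figure D4:**
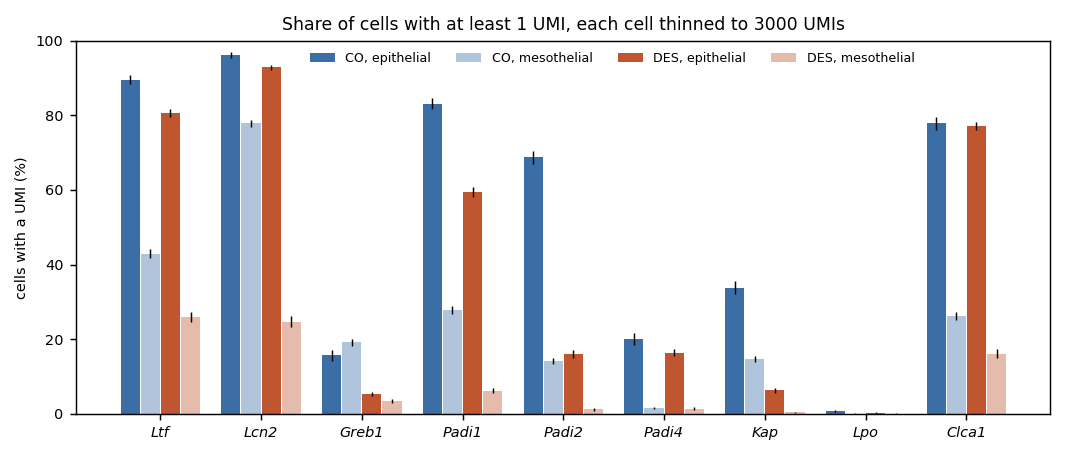
Percent of epithelial and mesothelial cells of each library with at least 1 UMI of each gene after thinning each cell to 3000 UMIs, with 95% Clopper-Pearson intervals. The CO to DES gap among epithelial cells is widest for Padi2 (68.7% and 16.1%), and the pale bars show the mesothelial cells, whose Greb1 share in CO (19.2%) is above the epithelial one.

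The levels of the genes also differed among the 16 non-basal DES clusters. DES cluster 5 (295 cells), proposed in the study as the cancer cells, had the highest Clca1 (5921 CPM), Padi1 (507 CPM), Padi2 (216 CPM), Padi4 (91.8 CPM) and Kap (167 CPM) of these 16 clusters. Its Kap came from 17.3% of its cells. Basal markers took 0.0662% of its UMIs, the highest share of the 16 clusters (0.0395% in the next). The part of basal cells in its levels was not tested. Padi4 and Clca1 in this cluster were above their levels summed over the CO epithelium (76.2 and 1433 CPM), while Padi2 and Kap were not (533 and 457 CPM). Those sums include the glandular clusters. Clca1 was also above its highest single CO cluster (2147.5 CPM in CO cluster 2), but Padi4 was below its highest (111 CPM in CO cluster 10). Greb1 was 5.18 CPM in the cluster and reached its highest DES level, 51.6 CPM, in DES cluster 7. Ltf was highest in DES cluster 1 (4998 CPM) and Lcn2 in DES cluster 15 (6253 CPM). In the CO library, Clca1, Greb1, Lcn2, Ltf, Padi1 and Padi2 were lowest in the glandular progenitor cluster 14 (28 cells, Greb1 on 4 UMIs). In the DES library Clca1, Kap, Lcn2 and Padi1 were lowest in DES cluster 14 (67 cells). The clusters of each library were formed and numbered separately, so a shared number is no match. How many of all genes peak or fall lowest in these clusters was not counted.

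The basal cells of the DES uterus had their own profile. These are the 608 DES cells of integrated clusters 8 and 11, which held Krt14 at 3554 CPM and Krt5 at 1735 CPM, keratins of the basal layer of stratified epithelia. Against the non-basal DES clusters, Clca1 was 12.8-fold lower in them (133 CPM), Ltf 10.4-fold lower (226 CPM), Kap 9.03-fold lower (5.10 CPM, 55 UMIs), Padi2 7.48-fold lower (8.99 CPM) and Lcn2 2.81-fold lower (945 CPM). Greb1 was 2.29-fold higher in them (38.2 CPM), Padi4 1.69-fold higher (86.8 CPM, and 102 CPM in integrated cluster 11 alone, above DES cluster 5) and Padi1 1.44-fold higher (447 CPM). The neighbours Padi4 and Padi2 therefore went opposite ways. Lpo had 3 UMIs in basal cells, and its ratio to non-basal cells of 0.480 (0.0973 to 1.45) was not distinguishable from no difference.

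Across whole sections, Kap was the one of the 9 genes with the largest fitted difference between the groups. It was at 193 and 2531 CPM in the CO sections A and B, against 16.2 and 35.8 CPM in the DES pair. Both DES sections were below both CO sections. A Kap UMI was seen in 33.8% and 69.0% of CO spots and in 3.81% and 5.60% of DES spots. The fitted DES to CO difference was -5.88 ± 1.39 on the log2 scale (standard error, edgeR quasi-likelihood test with Benjamini-Hochberg adjustment over 14098 genes, adjusted p = 0.0855), and ran from -6.77 without CO section A to -3.11 without CO section B. Greb1 was at 101 and 78.1 CPM in the CO sections A and B, against 57.4 and 42.1 CPM in the DES pair, again lower in both DES sections (-1.06 ± 0.24, adjusted p = 0.0748). Padi4 was at 33.5 and 21.4 CPM in the CO sections A and B, against 89.5 and 78.0 CPM in the DES pair, higher in both DES sections (1.39 ± 0.27, adjusted p = 0.0597). None of the 9 genes passed the threshold of 0.05 in this edgeR fit, in which 5.30% of all genes did (747 of 14098). At an unadjusted p under 0.05 there were 3 members, Padi4, Kap and Greb1, as against 24.4% of all genes, and DESeq2 called the same 3 and 12.7% of all genes. The edgeR fit called 3 members and 19.4% of all genes without CO section A (Padi4, Kap and Greb1), 5 members and 16.1% without CO section B (these and Lcn2 and Lpo), and no member without DES section A (0.0955% of all genes) or DES section B (0.0204%). The median log2 difference of the 9 genes was -1.06, against -0.005 over all genes tested. Other tissue moved with the groups: all 6 smooth muscle markers fell in the same fit, and the share of epithelial-marker UMIs was 0.382% and 0.248% in the CO and 0.384% and 0.418% in the DES sections. In bulk sums such as these, fewer cells of a type and less RNA per cell cannot be told apart.

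The spread within a group was large for several of the genes. Lcn2 was at 8116 CPM in CO A and 884 CPM in CO B, with the DES sections at 1395 and 1321 CPM between them (-1.96 ± 1.00, adjusted p = 0.313). Ltf was at 3944 and 701 CPM in the CO and at 4156 and 1386 CPM in the DES sections (A before B), so each group had a high and a low section (0.01 ± 0.92, adjusted p = 0.995). Lpo had 294 and 1 UMIs in the CO and 11 and 17 UMIs in the DES sections (-3.23 ± 1.82, adjusted p = 0.356). The CO sections differed 13.1-fold in Kap, 9.18-fold in Lcn2 and 5.63-fold in Ltf, against a median of 1.25-fold over 9631 genes of at least 10 CPM. 0.530% of these genes differed more than Kap, 0.727% more than Lcn2 and 1.25% more than Ltf between the CO mice. Kap was higher in CO B, whereas Lcn2, Ltf and Lpo were higher in CO A.

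Values from here on are given in the order CO A, CO B, DES A, DES B. Clca1 was at 3616, 4319, 727 and 3109 CPM, lower in both DES sections (-1.23 ± 0.70, adjusted p = 0.357). Padi1 was at 1254, 649, 1469 and 2043 CPM, higher in both DES sections (0.67 ± 0.40, adjusted p = 0.377), and Padi2 at 716, 288, 207 and 389 CPM, overlapping (-0.96 ± 0.55, adjusted p = 0.366). With 1 section left out, Clca1 ran from -2.70 without DES B to -0.54 without DES A, Padi1 from 0.26 without CO B to 1.26 without CO A, and Padi2 from -1.56 without DES B to -0.13 without CO A, none of them past the threshold. The groups thus did not overlap for 5 of the 9 genes (Kap, Greb1 and Clca1 lower, Padi1 and Padi4 higher), where 61.6% of all genes did not overlap. With 2 sections against 2, an exact permutation test cannot go below 0.333.

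**Figure D5:**
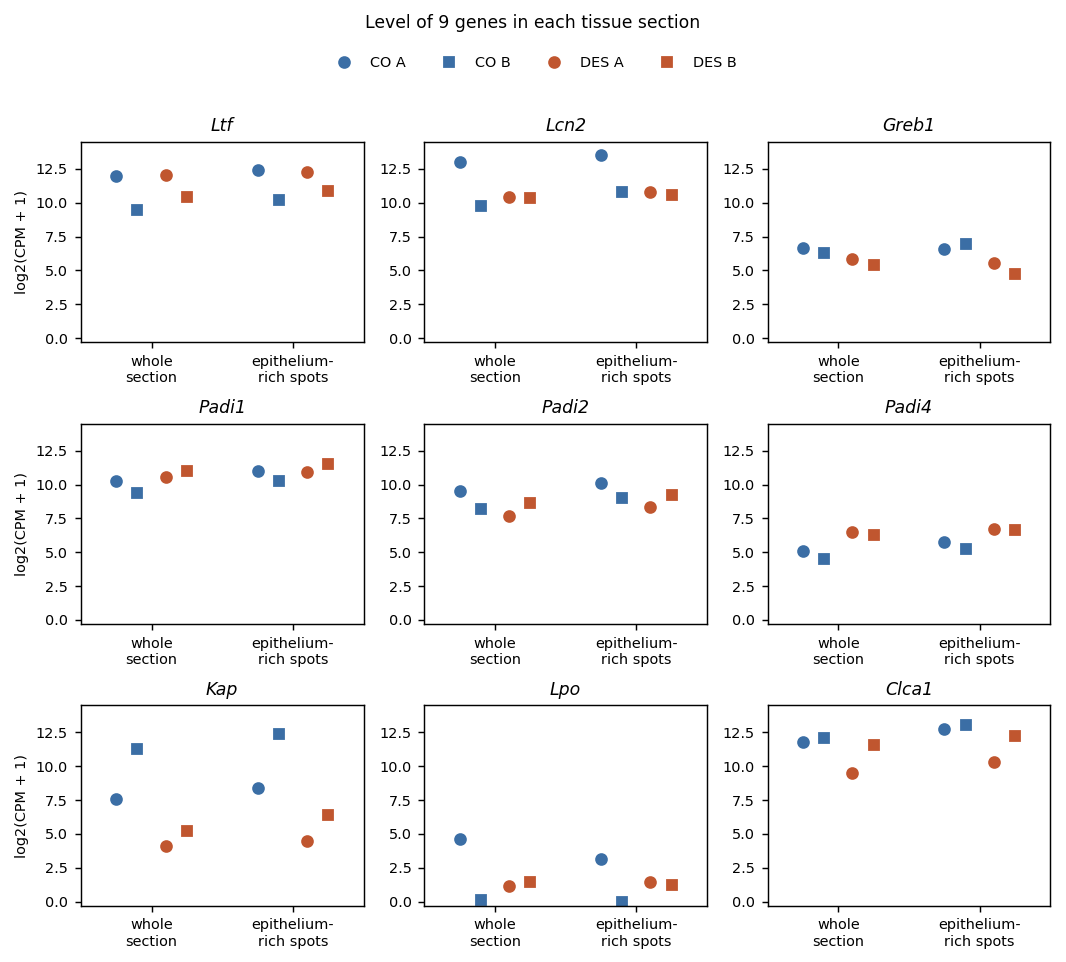
Level of each gene, as log2(CPM + 1), in each of the 4 sections (CO blue, DES orange-red; A circles, B squares), for whole sections and for the 20% of spots richest in epithelial markers. Kap and Greb1 are lower and Padi4 is higher in both DES sections in both views, and Ltf, Lcn2 and Lpo differ widely between the CO sections.

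In the spots richest in epithelium, Greb1 passed the test. Epithelium-rich spots were the 20% of spots of each section with the highest share of UMIs from 7 epithelial markers, none of them among the 9 genes. Spots can hold several cells. In them Greb1 was at 94.5, 120, 44.9 and 25.8 CPM, and fell by 1.92 ± 0.30 on the log2 scale (edgeR, adjusted p = 0.0283). The call was lost without DES section A (-2.33, adjusted p = 0.0811) or DES section B (-1.59, adjusted p = 0.19), while 5 members and 26.7% of all genes were called without CO section A, and 8 members and 26.4% without CO section B. Kap was at 344, 5454, 21.1 and 84.0 CPM (-6.06 ± 1.49, adjusted p = 0.0716, and -7.405 to -3.035 with 1 section left out), and Padi4 at 52.5, 36.9, 104 and 96.7 CPM (0.84 ± 0.25, adjusted p = 0.105). The antimicrobial genes again split the CO sections, with Lcn2 at 11943, 1753, 1797 and 1555 CPM (-2.37 ± 0.85, adjusted p = 0.157) and Ltf at 5502, 1202, 4972 and 1828 CPM (-0.33 ± 0.78, adjusted p = 0.833). Clca1 was at 6740, 8550, 1290 and 4776 CPM (-1.63 ± 0.61, adjusted p = 0.169). With 1 section left out, Lcn2 ran from -3.17 without CO B to -0.36 without CO A, and Clca1 from -2.90 without DES B to -0.96 without DES A. Fits of this kind assume that the lone section of a group varies like the others, while the CO sections differed 6.81-fold in Lcn2 here. Greb1 was the only one of 8 members called, since Lpo did not pass the filter on low counts, and 6.68% of the 11706 genes tested were called. The groups did not overlap for 4 of the 9 (Greb1, Kap and Clca1 lower, Padi4 higher), where 61.4% of genes did not. Markers of other cells moved with the groups in these spots. Basal markers took 0.000496%, 0.0177%, 0.877% and 0.615% of UMIs, stromal markers 0.113%, 0.0887%, 0.0611% and 0.0470%, and neutrophil markers 0.000945%, 0.000903%, 0.0411% and 0.00774%, and their part in the Greb1 difference was not tested. Padi1 had a log2 difference of 0.26 ± 0.35 there and Padi2 of -1.15 ± 0.49 (adjusted p = 0.69 and 0.212). Padi2 there was -0.43 without CO A and -1.67 without DES B.

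In stromal spots, the spot clusters that the study named as stroma, Kap fell. It was at 201 and 1041 CPM in the CO sections, and had 2 and 1 UMIs in the DES sections (edgeR, -8.11 ± 1.03, adjusted p = 0.0198). The summed counts, 1072 and 3 UMIs, give a CO to DES ratio of 329, whose interval of 112 to 1596 covers counting error only and not the spread between sections. Kap was 1 of 8 members called, where 1.47% of 8914 genes were called, and the call was lost without DES section A (-7.62, adjusted p = 0.0719). The Kap difference was -8.89 without CO section A and -6.45 without CO section B. Clca1 was at 2752, 2336, 231 and 603 CPM (-2.62 ± 0.51, adjusted p = 0.0507), and Padi2 at 598, 247, 120 and 101 CPM (-1.97 ± 0.44, adjusted p = 0.0747). With stromal spots chosen by a stromal-marker score instead, Clca1 was at -0.57 ± 0.94 (adjusted p = 0.871) and Padi2 at -1.40 ± 0.58 (adjusted p = 0.38), and in DES B 33 of the 132 stromal spots were among those chosen by score. Epithelial markers took 0.256%, 0.165%, 0.212% and 0.121% of the UMIs of these stromal spots in the same order, against 0.651%, 0.474%, 0.598% and 0.641% in epithelium-rich spots. The other 5 genes tested there had log2 differences of -2.53 ± 0.92 (Lcn2), -0.92 ± 0.76 (Ltf), 0.97 ± 0.43 (Padi4), 0.36 ± 0.47 (Greb1) and 0.08 ± 0.37 (Padi1), with adjusted p from 0.268 to 0.964. Without CO section A, 2 members (Kap and Clca1) and 3.43% of all genes were called, and without CO section B 3 members (Kap, Lcn2 and Padi2) and 1.45%. Without DES section B, 2 members (Kap and Clca1) and 0.830% were called. The stromal spots also differed in makeup. Stromal markers took 0.592%, 0.447%, 0.343% and 0.262% of their UMIs, muscle markers 0.0963%, 0.0762%, 0.317% and 0.954%, and basal markers 0%, 0.00900%, 0.706% and 0.1998%. The part of epithelial RNA and of this makeup in the stromal values was not tested. These fits use the same 4 sections as the fits above, so they are not independent of them.

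The place of the genes within a section was compared in a fit with both regions of each section. In CO sections 7 of the 9 genes were higher in epithelium-rich than in other spots, where 26.7% of 13686 genes were. The log2 differences were 2.02 ± 0.24 for Kap, 1.90 ± 0.15 for Clca1, 1.55 ± 0.15 for Padi1, 1.51 ± 0.20 for Lcn2, 1.37 ± 0.13 for Padi2, 1.33 ± 0.15 for Padi4 and 1.16 ± 0.16 for Ltf (edgeR, adjusted p from 1.3e-06 to 8.35e-05). Greb1 was not called (0.51 ± 0.22, adjusted p = 0.0651), and Lpo was lower in epithelium-rich spots (-1.94 ± 0.35, adjusted p = 0.000686), a call that rests on CO section A (33 and 261 UMIs in the 2 regions), since CO section B had 0 and 1 UMIs. In DES sections 4 of the 9 genes were higher in epithelium-rich spots, where 1.86% of genes were, namely Kap (1.33 ± 0.30), Clca1 (1.00 ± 0.15), Padi2 (0.83 ± 0.13) and Padi1 (0.58 ± 0.15). With 1 section left out, the Kap value ran from 0.505 to 1.93. Under 3 other settings with all 4 sections kept, Padi2 was called in 3, Clca1 in 2, and Kap and Padi1 in 1 each. Padi4 was at 23.8, 13.7, 84.6 and 72.4 CPM in the other spots, higher in both DES sections there too. Without CO section A or CO section B, 8 members were called in the DES contrast, 7 higher and Greb1 lower, where 20.6% of all genes were called in each case. Without DES section A 1 member (Kap, 1.93) and 1.48% of all genes were called, and without DES section B 1 member (Clca1) and 2.30%. The regions were set by marker genes of the same spots, so that epithelial genes lie in them is partly built in.

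The difference between these enrichments, DES minus CO, was negative and past the threshold for 6 of the 9 genes, where 7.15% of all genes were lower. Greb1 had a difference of -1.22 ± 0.34 (edgeR, adjusted p = 0.033), Lcn2 of -1.16 ± 0.28 (adjusted p = 0.0176) and Padi4 of -1.04 ± 0.20 (adjusted p = 0.00544). Padi1 had -0.98 ± 0.21, Clca1 -0.90 ± 0.21 and Ltf -0.78 ± 0.22. Under 3 other settings with all 4 sections kept, Padi1 and Clca1 were called in 3, Lcn2 and Padi4 in 2, Ltf in 1 and Greb1 in 0. The 7 epithelial markers moved with them: 6 were lower in the same test, with a median of -0.84 against -0.90 for the 9 genes. The marker share was 0.651% in epithelium-rich and 0.244% in other spots of CO A and 0.474% and 0.136% in CO B, but 0.598% and 0.312% in DES A and 0.641% and 0.351% in DES B. The part of this narrower contrast between regions in the difference was not tested. None of the 6 was called without DES section A or without DES section B, while 8 members and 29.0% of all genes were called without CO section A, and 7 members and 19.5% without CO section B. The difference was -1.805 and -0.64 for Greb1, and -1.65 and -0.69 for Lcn2, without CO section A and without CO section B.

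Over the 10 spot clusters of a section, the levels of Ltf, Lcn2, Padi1, Padi2 and Clca1 followed the share of epithelial-marker UMIs. Pearson's r on log2(CPM + 1) was 0.790 to 0.959 for these 5 genes over the 4 sections. Kap had r of 0.845, 0.911, 0.263 and 0.789, and Lpo of 0.512, 0.343, 0.487 and 0.166. Greb1 had r of -0.455, 0.832, 0.364 and -0.616, so its level was not tied to epithelium in the same way from section to section. Padi4 had 0.855, 0.789, 0.0927 and 0.871. The DES A values of these genes count spot clusters 10 (2 spots) and 9 (9 spots) as much as the larger ones. DES A spot cluster 10 had the highest epithelial-marker share (0.517%), but 0 Padi4, 0 Kap and 3 Greb1 UMIs. In DES section A, Ltf (9996 CPM) and Lcn2 (4149 CPM) were highest in spot cluster 8 (61 spots), where neutrophil markers took 0.240% of UMIs against 0.0342% in the whole section, and the part of neutrophils in these levels was not tested. In DES section B, spot cluster 7 (106 spots) held 271 of the 354 Kap UMIs and the highest Clca1 (6016 CPM), Ltf (3749 CPM) and Padi4 (124 CPM). The clusters of a section share a library and differ in depth, and the values are descriptions.

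Esr1 was not called. It was at 227 CPM in CO and 216 CPM in DES epithelial cells, and at 267, 261, 230 and 232 CPM in the sections (-0.40 ± 0.16, edgeR adjusted p = 0.215). Esr2, which encodes ERβ, had 13 UMIs (0.165 CPM) in CO and 227 UMIs (1.29 CPM) in DES epithelial cells, and 0 to 4 UMIs per section. Gper1, a membrane estrogen receptor, was at 0.673 CPM (53 UMIs) in CO and 3.0 CPM (528 UMIs) in DES cells. Of 9 receptors and co-regulators tested in whole sections, 1 rose and none fell. This was Foxa1, a pioneer factor for ERα named here after its values were seen, with 0, 4, 98 and 307 UMIs (adjusted p = 0.0401). Of 25 other estrogen-regulated uterine genes, 23 were tested in whole sections, where 1 rose and 2 fell (5.30% of all genes were called), with a median log2 difference of 0.088. Wnt4, a Wnt ligand, rose (1.93 ± 0.25, adjusted p = 0.0284). C3, a complement component secreted by estrogen-treated uterine epithelium, fell (-3.21 ± 0.30, adjusted p = 0.021), and Ckb, brain-type creatine kinase, fell (-1.76 ± 0.22, adjusted p = 0.0276). In the single cells, 20 of these 25 reached 10 CPM in 1 or both libraries. Of these 20, 3 were at least 2-fold higher and 7 at least 2-fold lower in DES epithelium, where 14.3% of all genes were 2-fold apart. Below 10 CPM, Igf1 (DES to CO ratio 0.223), Ramp3 (0.0230), Sprr2a2 (0.140, 5 and 16 UMIs) and Sult1e1 (0.0497, 2 and 18 UMIs) were lower too, and Tff3 had no UMI. Ckb was among the higher ones in the single cells (65.9 CPM in DES and 25.9 CPM in CO cells), unlike in the sections, and the part of tissue makeup in that was not tested.

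Of 7 neutrophil markers tested in whole sections 1 rose, and none of 7 macrophage or 2 eosinophil markers did. The neutrophil marker S100a9 was at 11.7, 0.997, 168 and 14.8 CPM (3.58 ± 1.49, edgeR adjusted p = 0.232), S100a8 at 3.36, 0.906, 92.8 and 8.10 CPM (adjusted p = 0.137), and Il1r2 at 1.12, 1.99, 30.2 and 15.1 CPM (3.65 ± 0.48, adjusted p = 0.0291). All 12 neutrophil markers together took 0.00277%, 0.00399%, 0.0342% and 0.00640% of UMIs. The macrophage genes Lyz2 (121, 321, 1500 and 738 CPM), C1qa (135, 223, 375 and 280 CPM) and C1qb (91.2, 150, 229 and 182 CPM) did not pass the test. Their values were nonetheless higher in both DES sections. Among eosinophil markers Prg2 was at 1.76, 5.44, 26.8 and 37.2 CPM (adjusted p = 0.0538), Ear2 at 0.800 to 2.74 CPM, and Siglecf at 0 CPM in CO A and in DES B. The part of these cells in the Padi4, Ltf and Lcn2 levels of the sections was not tested. In the single-cell library the DES class labelled lymphocytes, with S100a9 at 3613 CPM, had Padi4 at 26.9 CPM against 53.3 CPM in DES epithelial cells.

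Most of the genes varied together over the CO clusters, largely along the split between luminal and glandular clusters. Lpo did not, and Greb1 did so less by rank. For the 28 pairs of genes without Lpo, the median Pearson's r of log2(CPM + 1) was 0.862 over the 15 CO clusters and 0.599 over the 11 CO clusters that are not glandular, where 6 pairs were below 0. Over the 16 DES clusters it was 0.351, and 8 pairs were below 0. Lpo had r of -0.261 to 0.0314 with the other genes over the CO clusters. Greb1 had Pearson's r of 0.388 to 0.826 with the genes other than Lpo over the 15 CO clusters. Its Spearman rank correlation with them was -0.111 (Kap) to 0.507 (Ltf). Over the 11 that are not glandular its Pearson's r went down to -0.508 (Clca1). The lowest DES pair was Greb1 with Padi4 (-0.618), which was 0.555 in CO. Kap with Clca1 was alike in both, at 0.872 and 0.873. Clusters of a library share its depth and background, and these values are descriptions with no test.

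Over all 31 clusters, centred within each library, the gene most like Ltf of 8003 considered was Cp (r = 0.939), which encodes ceruloplasmin, followed by Stc2 and Cfb. Lcn2 was most like Ap3s1, Lpar1 and Clint1 (0.920 to 0.947), and Greb1 most like Lpcat3, Eya2 and Aspa (0.805 to 0.810). Padi1 was nearest to Ank, Adgrg7 and Slc44a4, Padi2 to Mfsd4, Dsc2 and Mlph, and Padi4 to Svip, Mboat2 and Lrrc26 (0.907 to 0.954 over these 9). Clca1 was nearest to Gpx1, Arg1 and B3gnt3 (0.924 to 0.937). Kap reached 0.814 with Krt84, 0.810 with Sypl and 0.790 with Gpx1. Lpo, on few UMIs, reached 0.707 with Fabp5, then 0.655 with Isyna1 and 0.654 with Pdia4.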

How the data were processed

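Single cells from trypsin-treated uterine horns were captured by the authors with 10x Genomics 3′ chemistry, and sections on a Visium slide. Per the submitters' notes and the study's methods, the authors counted UMIs with Cell Ranger 3.0.1 (cells) and Space Ranger 1.2.2 (sections) on mm10, removed barcode-swapped molecules and doublets from the cells, and assigned cell types, epithelial clusters and spot clusters, which were used as deposited. The deposited values are raw UMI counts per gene and cell or spot. The 9 genes and all gene lists were chosen with earlier results of these data known.

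Counts were summed over sections, regions, cell types and clusters and given as CPM. Sections (2 against 2) were compared with edgeR 4.0.16 (quasi-likelihood test, TMM factors, filterByExpr) over all genes, with Benjamini-Hochberg adjustment and a threshold of 0.05. The comparison of regions used section as a block. The scripts were tested on simulated data. Each single-cell library pools mice and gives no spread between mice, so these libraries were compared as values with intervals (counting error only, level 95%), with cells thinned to 3000 UMIs for shares (random seed 20230). Of the metadata, 350 cells had no counts in the table and were not used. No column of per-sample values was left unused. Named genes were the 9 genes, the estrogen receptors, up to 4 other estrogen-regulated genes past the threshold with the largest change, the 3 most abundant neutrophil, eosinophil and macrophage markers, and the 3 genes most alike per gene. Gland markers and Krt14 and Krt5 were named beside results after their values were seen. Alternatives were DESeq2 1.42.0, other size factors, filters, regions and cell sets, and leaving out each section. Section letters name different mice, so no pairing was used. Nothing in the sources says whether sections of a group came from 1 litter.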

Additional observations from a re-analysis of the deposited data

Results flagged for a closer look

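The contrast between epithelium-rich and other spots differed between DES and CO sections for 6 genes in the test of the difference itself (edgeR, DES minus CO on the log2 scale): Lcn2 -1.16, Clca1 -0.90, Padi4 -1.04, Padi1 -0.98, Ltf -0.78 and Greb1 -1.22. Under 3 other settings with all 4 sections kept, Greb1 was called in 0 and Ltf in 1, while Lcn2 and Padi4 were called in 2 and Padi1 and Clca1 in 3. The epithelial markers that set the regions moved the same way (median -0.84, 6 of 7 past the threshold), and none of the 6 differences passed the threshold without DES section A or without DES section B.

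Cells to which the authors gave no cell type were not used in the comparisons of DES with CO. These were 20134 CO and 6611 DES cells with medians of 4138 and 2178 UMIs. In the DES cells of this kind Ltf was at 1471 CPM, Padi4 at 36.5 CPM and Clca1 at 1164 CPM, above the CO cells of this kind at 1019, 32.9 and 585 CPM, with 1 library per condition and no test. The other 6 genes were below them, with Lcn2 at 1452 in DES and 2697 CPM in CO, Padi1 at 216 and 479, Padi2 at 43.6 and 219, Kap at 23.6 and 170, Greb1 at 10.7 and 52.0, and Lpo at 0.213 and 0.819 CPM. Epithelial markers took 0.278% of UMIs in the DES and 0.292% in the CO cells of this kind.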

How the results depend on the processing

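In whole sections DESeq2 called 1791 genes and 3 of the 9, keeping genes with at least 1 count called 863 genes and 1 of the 9, and the section letter as a replicate block called 527 genes and 1 of the 9 (Kap, -5.08). The block changed no other call of a member there. The letters do not pair the mice (r of deviations -0.025 over 14098 genes). Without 1 section the counts ran from 3 to 2819 genes and 0 to 5 members, high without a CO and low without a DES section, the lone section of a group being assumed to vary like the others. In epithelium-rich spots DESeq2 called 1140 genes and 3 members, the looser filter 857 and 2 and the 10% region 632 and 3, and leaving out 1 section gave 38 to 3185 genes and 0 to 8 members. In stromal spots the looser filter called 714 genes and 4 members, DESeq2 193 genes and 3 members and a marker-score region 74 genes, and leaving out 1 section gave 40 to 357 genes and 0 to 3 members. For the CO contrast of regions DESeq2 called 4338 genes in either direction, and leaving out 1 section gave 6061 to 7330 genes and 8 members. For the DES contrast DESeq2 called 556 and the 10% region 554 genes and 1 member, and leaving out 1 section gave 210 to 2890 genes and 1 to 8 members. For their difference DESeq2 called 832 genes and 3 members, the 10% region 833 and 3, and leaving out 1 section gave 437 to 4076 genes and 0 to 8 members. The cause of these shifts was not tested.

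Of 394 alternative log2 values of the 9 genes, 291 kept their direction and side of the threshold, 51 passed it, 34 lost it and 18 changed sign. Those that changed sign without 1 section are given with their lowest and highest value over the sections left out. In whole sections they were Ltf (-0.965 to 1.782), Lcn2 (-2.81 to 0.43, positive without CO A) and Lpo (-4.22 to 3.68, positive without CO A), with Ltf at -0.76 without CO B and -0.965 without DES A. In epithelium-rich spots they were Ltf (-1.18 to 1.199, and 0.21 without DES B) and Padi1 (-0.084 without DES B to 0.70, and -0.066 without CO B). In stromal spots they were Ltf (-2.21 to 0.54), Lcn2 (-3.40 to 0.020), Greb1 (-0.18 to 1.12, and -0.045 without DES A) and Padi1 (-0.30 to 0.575, and -0.023 without DES A), and the marker-score region gave Greb1 -0.35. In the region contrasts they were Greb1 in CO (-0.051 to 1.11) and Lpo in DES (-0.53 to 0.74), and 30% of spots gave Lpo -0.27. The count of 6 genes at least 2-fold lower in DES epithelial cells was 6 under all 6 alternatives run for it. Of the 54 single-cell ratios under those, 21 stayed within the counting interval and 33 moved beyond it, Kap lying between 0.0776 and 0.101 and Padi4 between 0.673 and 0.827. Lpo had 1 to 17 UMIs in 3 of the sections, which limits the precision of its values.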
